A study of Sus scrofa with 2 samples.

Results

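The genes described here encode subunits of the mitochondrial respiratory chain that are made from nuclear DNA. They were taken by symbol: names of the NDUFA, NDUFB, NDUFC, NDUFS, NDUFV, SDH, UQCR, COX4 to COX8 and ATP5 series, which gave 56 of the 10700 symbols in the gene tables. By name, 25 belong to complex I, 3 to complex II, 4 to complex III, 10 to complex IV and 14 to complex V. The study captured single cells of pig endometrium, the inner lining of the uterus, in 2 droplet libraries from artificially inseminated Yorkshire sows of 3 years. Its design text names 1 sow at day 7 of gestation, called pre-receptive, and 1 sow at day 13, called receptive, and no label ties a library to a day. The groups are therefore called library 1 (pig endometrium1) and library 2 (pig endometrium2), and no stage is given to either. Tissue of both was digested with collagenase II, dispase and DNase, filtered, freed of red cells and captured at the 3′ ends of transcripts.

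The respiratory chain sits in the inner mitochondrial membrane. Complex I takes electrons from NADH and complex II from succinate, complex III passes them from ubiquinol to cytochrome c, complex IV hands them to oxygen, and complex V, the ATP synthase, uses the proton gradient built on the way. The mitochondrial genome encodes core subunits of every complex except complex II, and the nuclear genome encodes all other subunits, many of them small proteins that surround a core of larger ones. In the endometrium the gland and surface epithelium secretes the fluid that feeds the early conceptus, while stroma, vessels and smooth muscle make up most of the wall beneath it. None of the mitochondrially encoded subunits was found by name in the gene tables (0 of the 26 spellings looked for), so only the nuclear-encoded side of the chain could be measured, and SDHD, UQCRB, UQCRH, UQCRFS1, COX6C and the COX4I2 and COX6A genes were not analysed here.

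Library 1 held 10045 cell barcodes and 45388759 unique molecular identifiers (UMIs, each counting 1 captured transcript), and library 2 held 15093 barcodes and 87514969 UMIs. After removal of called doublets, 8930 and 12673 cells remained, and 48 barcode sequences occurred in both libraries. Cells were clustered and named from marker genes, so that each class name below stands for cells that resemble that type. Most clusters held cells of 1 library, and a class usually joins different clusters of the 2 libraries. The epithelial class was a cluster of 194 cells in library 1 (AQP3, NMB and KRT8 among its leading genes) and 3419 cells in library 2, most of them in 3 clusters (led by SHANK2, SLPI and CDO1). The stromal fibroblast class held 1114 and 2168 cells (ANPEP and C3 leading in library 1, NRG1 and RORB in library 2). The smooth muscle or pericyte class held 2208 and 1324 cells, the blood endothelial class 2560 and 2555, the T or NK class 477 and 832, and the class of macrophages, monocytes and dendritic cells, called macrophage below, 187 and 522. These 6 classes had at least 100 cells in each library and were compared gene by gene. Unnamed clusters took 20.7% of the cells of library 1, among them 2 clusters whose best match was stromal, and 7.75% of library 2.

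Each library is 1 animal, so a difference between libraries has no replicate check and no test was made. Intervals are exact 95% intervals that cover counting error only, and neither cells nor genes stand in for animals.

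The subunit genes took a smaller share of transcripts in library 2 than in library 1 in each of the 9 classes measured in both. Over all cells the 56 genes took 0.998% of UMIs in library 1 (95% interval 0.994 to 1.00) and 0.517% in library 2 (0.516 to 0.519), a log2 ratio of library 2 over library 1 of -0.95. The epithelial class had 1.71% (1.70 to 1.72) in library 1 and 0.577% (0.574 to 0.581) in library 2. Ciliated epithelial cells, 36 in library 1 and 577 in library 2, had 1.75% (1.70 to 1.81) and 0.614% (0.607 to 0.621). These were the 2 classes with the widest gap between libraries, at log2 ratios of -1.57 and -1.52.

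Outside the epithelium the gap was narrower. Stromal cells had 0.848% and 0.423%, blood endothelial cells 0.904% and 0.437%, and muscle or pericyte cells 1.05% and 0.563% in libraries 1 and 2. T or NK cells had 1.06% and 0.616%, macrophages 0.976% and 0.530%, and lymphatic endothelial cells, 210 and 75 in number, 1.08% and 0.591%. Plasma cells, 87 and 95 in number, had the lowest share of any class in each library, at 0.531% and 0.334%. In library 1 they were also lowest for other gene lists, such as cytosolic ribosomal protein genes (6.42% of UMIs) and glycolysis genes (0.117%). B cells could be measured in library 2 alone, at 0.546%.

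**Figure D1:**
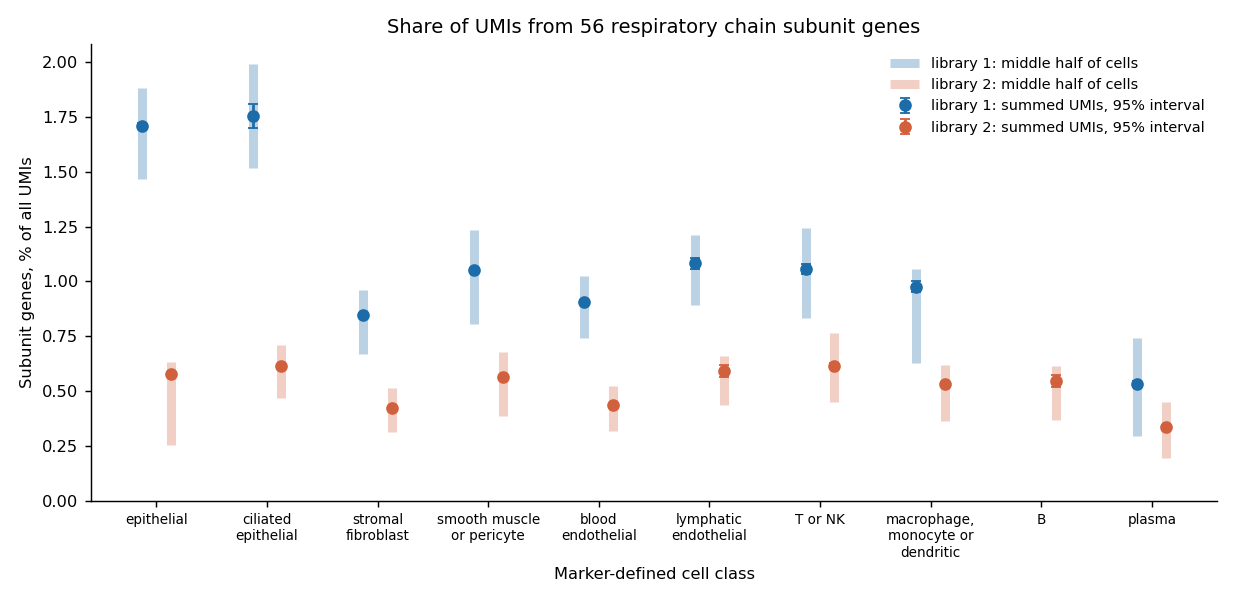
Share of all UMIs (%) that came from the 56 subunit genes in each marker-defined cell class (horizontal axis), for library 1 (blue) and library 2 (orange). Points are summed UMIs with exact 95% intervals and pale bars run from the lower to the upper quartile over cells. The points of library 2 lie below those of library 1 in all 9 classes measured in both. The epithelial and ciliated classes stand highest in library 1, and in library 2 ciliated cells overlap T or NK cells at the top.

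The shares of single cells were separated as well. In the epithelial class the quartiles of the per-cell share were 1.46% and 1.88% in library 1 against 0.253% and 0.631% in library 2. The low-depth SHANK2 cluster, 1444 of the 3419 epithelial cells of library 2, had 0.259% of its summed UMIs in subunit genes, beside 0.599% and 0.624% in the other 2 clusters. The narrowest separation among the 6 classes was in macrophages, with a lower quartile of 0.627% in library 1 and an upper quartile of 0.620% in library 2. In plasma cells the quartile ranges overlapped, from 0.297% to 0.742% in library 1 and from 0.194% to 0.449% in library 2.

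The order of the classes also differed between the libraries. In library 1 ciliated and other epithelial cells came first, with intervals that overlapped each other. Lymphatic endothelial, T or NK and muscle cells followed with overlapping intervals, then macrophages, blood endothelial, stromal and plasma cells, each below the class before it. In library 2 T or NK, ciliated, lymphatic endothelial and epithelial cells came first, each with an interval that overlapped that of the next, although the first and the last of them did not overlap. Muscle or pericyte, B and macrophage cells followed in the same manner, and the order from blood endothelial through stromal to plasma cells was as in library 1. By gene, 54 of the 56 members had their highest level in ciliated or other epithelial cells in library 1 (32 and 22), against 20 of 56 in library 2 (14 and 6). Some other gene lists also took their largest shares of UMIs in these classes of library 1. Mitochondrial ribosomal protein genes had 0.614% in epithelial and 0.546% in ciliated cells, and glycolysis genes 0.714% and 0.446%. Cytosolic ribosomal protein genes also had their largest share in epithelial cells, at 23.2%. Their share in ciliated cells was 8.95%, below the 17.1% of T or NK cells. Plasma cells held the lowest level of 47 members in library 1 and of 34 in library 2. The share of all features with their highest or lowest level in these classes was not counted. The 2 clusters of muscle or pericyte cells differed in the same way in both libraries. Cells led by MGP and ITIH4 had 1.32% in library 1 and 0.742% in library 2, and those led by EDNRB and TFPI2 had 0.941% and 0.495%.

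Gene by gene, levels were compared as CPM, UMIs of the gene scaled to the total of its class, and a gene was counted as lower or higher when the libraries differed at least 2-fold. A gene was measured in a class when it had at least 50 UMIs in the libraries together. All 56 members met this in the epithelial class and 53 to 55 in the other 5. The members below it were COX6B2 in those 5 classes, and NDUFB1 and COX7A1 in some of them.

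Over all cells, 25 of 56 members were at least 2-fold lower in library 2, beside 19.4% of all features. Epithelial cells had the most members lower in library 2, 43 of 56, with a median log2 ratio of -1.56. Over all features measured in that class, 20.9% were at least 2-fold lower and the median was 0.06. In stromal cells 26 of 55 members were lower (median -0.95; all features 13.7% and 0.11). Blood endothelial cells had 24 of 55 (median -0.88; all features 13.1% and -0.12), and muscle or pericyte cells also 24 of 55 (median -0.81; all features 11.6% and -0.09). Macrophages had 21 of 53 (median -0.80; all features 10.4% and 0.04), and T or NK cells 17 of 53 (median -0.63; all features 6.52% and 0.19). The share of lower members was thus above that of all features in each of the 6 classes.

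In the opposite direction the members stood below the background. A single member, ATP5F1D, was at least 2-fold higher in each class and over all cells, whereas 26.6% of all features were so over all cells, 27.8% in epithelial cells, 27.6% in stromal, 21.5% in blood endothelial, 20.9% in muscle or pericyte, 23% in macrophage and 25.1% in T or NK cells. Ratios below 0 were found for 52 of 56 members over all cells (all features 50.7%), 54 of 56 in epithelial cells (48.4%), 51 of 55 in stromal (46.3%), 54 of 55 in blood endothelial (54.8%), 50 of 55 in muscle or pericyte (53.9%), 51 of 53 in macrophage (48.3%) and 49 of 53 in T or NK cells (41.9%). Of the 56 members, 47 were below 0 in all 6 classes, and the share of all features below 0 in all 6 was not counted.

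The members did not move as a block. The counts over all 6 classes that follow stand without a share of all features, which was not computed across classes. A set of 14 was at least 2-fold lower in 6 of 6 classes: NDUFA2, NDUFA3, NDUFA13 and NDUFB4 of complex I, UQCR10 of complex III, COX6B, COX7A2, COX7B, COX7C and COX8A of complex IV, and ATP5IF1, ATP5MC3, ATP5MD and ATP5PF of complex V. Apart from the regulator ATP5IF1 and the ring subunit ATP5MC3, these are accessory or stalk proteins. A set of 12 was at least 2-fold lower in none of the 6: NDUFA12, NDUFB9, NDUFS6, NDUFS7, NDUFV1, NDUFV2 and NDUFV3 of complex I, SDHA and SDHB of complex II, UQCRC1, COX4I1 and ATP5F1D. Several of these carry the redox centres of their complex, such as NDUFV1, which binds the flavin that accepts electrons from NADH. Others do not, such as the accessory proteins NDUFS6 and NDUFV3 and the stalk subunit ATP5F1D.

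**Figure D2:**
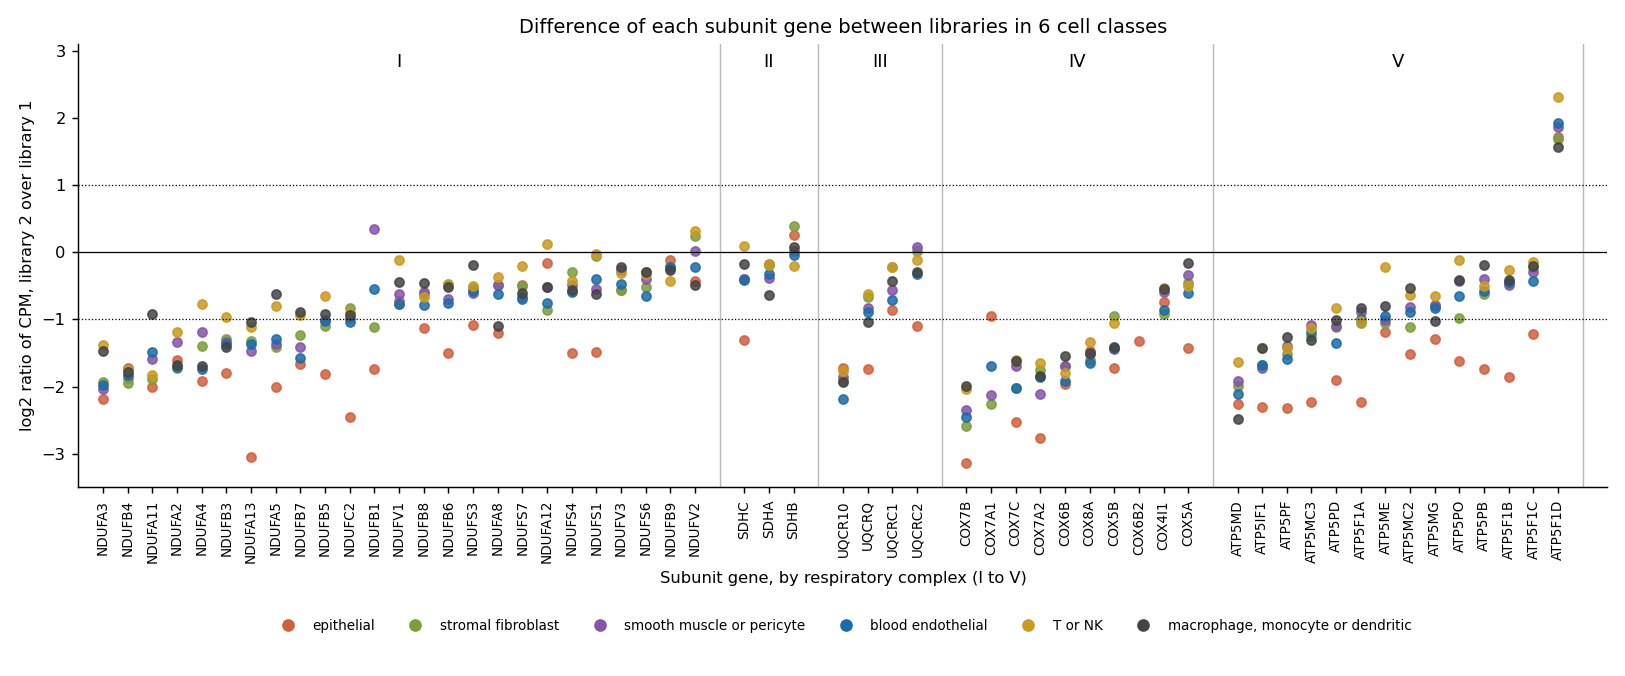
Log2 ratio of CPM, library 2 over library 1 (vertical axis), of each subunit gene (horizontal axis, grouped by complex I to V and ordered by median), with 1 point per cell class where the gene was measured. Dotted lines mark 2-fold; COX7B is the lowest gene of complex IV, ATP5F1D is the single gene above the upper line, and epithelial points are often the lowest of a gene.

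In complex I the core and the accessory subunits differed in how far they stood apart between libraries. The 5 core genes measured, NDUFS1, NDUFS3, NDUFS7, NDUFV1 and NDUFV2, encode proteins of the arm that takes up electrons, most of which hold the flavin or iron-sulfur clusters. None of the 5 was 2-fold lower in any class but the epithelial one, where NDUFS1 (48.5 and 17.4 CPM in libraries 1 and 2) and NDUFS3 (109.8 and 52.1) were. NDUFV2 was at 74.6 and 93.1 CPM in T or NK cells, at 114 and 115 in muscle or pericyte cells and at 221 and 164 in epithelial cells. Its log2 ratio ran from -0.49 to 0.32 over the 6 classes, on both sides of 0.

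Of the 19 accessory genes of complex I, 15 were at least 2-fold lower in epithelial cells, 10 in blood endothelial, 10 in stromal and 9 in muscle or pericyte cells. Of the 18 measured in the other classes, 6 were lower in macrophages and 5 in T or NK cells. Among all features, 20.9% were at least 2-fold lower in epithelial, 13.1% in blood endothelial, 13.7% in stromal and 11.6% in muscle or pericyte cells. The shares in macrophages and T or NK cells were 10.4% and 6.52%. NDUFB4 had nearly the same ratio in all 6 classes (log2 -1.95 to -1.73), for example 161 and 41.7 CPM in stromal cells and 247 and 73.8 CPM in T or NK cells. NDUFA3 was the lowest of complex I in blood endothelial cells (105 and 26.7 CPM) and in muscle or pericyte cells (158 and 38.8 CPM), and NDUFA11 in T or NK cells (118 and 33.2 CPM). The 3 accessory genes of the NDUFS and NDUFV series, NDUFS4, NDUFS6 and NDUFV3, were nearer to 0. They were within 2-fold in each of the 6 classes except NDUFS4 in epithelial cells (254 and 89.7 CPM). NDUFA12 and NDUFB9 were also within 2-fold in all 6, so this was not limited to those series.

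NDUFA13, also known as GRIM-19, had the widest gap of complex I in epithelial cells. It stood at 1111 CPM in library 1 against 135 CPM in library 2, which is -3.05 on the log2 scale (95% interval -3.12 to -2.97). In the other 5 classes it lay between 165 and 271 CPM in library 1 and between 63.9 and 126 CPM in library 2. NDUFC2, a membrane-arm subunit, also had a wide gap in epithelial cells, with 624 and 114 CPM. Its level in library 1 was highest in ciliated cells, at 1160 CPM, where NDUFA13 had 498 CPM. NDUFC2 was at least 2-fold lower in 2 of 6 classes, and NDUFA13 in 6 of 6. Both exceeded 4 times their median over classes in library 1 (5.02-fold in epithelial and 5.36-fold in ciliated cells) and neither did in library 2. NDUFB1, a small membrane-arm subunit, went the other way in 1 class. Muscle or pericyte cells had 43.4 CPM in library 1 against 54.9 in library 2 (log2 0.34, 95% interval 0.11 to 0.57), whereas epithelial cells had 44.5 and 13.4 CPM and stromal cells 18.5 and 8.51 CPM. Its level in muscle or pericyte cells of library 2 was 4.5 times its median over the classes there. NDUFA4, placed here by its name although its protein is now counted with complex IV, was the most abundant of the NDUF series. It had 857 and 227 CPM in epithelial cells and 310 and 181 CPM in T or NK cells.

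Complex II, succinate dehydrogenase, had the summed ratio nearest to 0 of the 5 complexes in each of the 6 classes compared gene by gene. Over these classes the log2 ratio ran from -0.35 in epithelial cells to -0.07 in stromal cells (95% interval of the latter -0.19 to 0.05). In ciliated cells it was -0.84. SDHB, the iron-sulfur subunit, was at 111 and 133 CPM in epithelial cells, 51.8 and 67.7 in stromal cells, 79.8 and 80.8 in muscle or pericyte cells and 103 and 89.8 in T or NK cells. Its highest log2 ratio was 0.38 (95% interval 0.18 to 0.60), in stromal cells. SDHA, the flavoprotein that oxidises succinate, was at 48.5 and 42.9 CPM in epithelial cells and 48.9 and 31.5 CPM in macrophages, its widest gap. SDHC, a membrane anchor, was the single member of the complex past 2-fold, in epithelial cells, at 133 and 53.8 CPM.

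Complex III split into its core proteins and its small subunits. UQCRC1 and UQCRC2, the large core proteins, were past 2-fold in 1 instance, UQCRC2 in epithelial cells at 187 and 87.5 CPM. In stromal cells UQCRC2 stood at 70.1 and 70.7 CPM and in muscle or pericyte cells at 116 and 122 CPM. UQCR10, a small transmembrane subunit, was the lowest of the complex in 5 classes and past 2-fold in all 6, with 143 and 31.3 CPM in blood endothelial cells (log2 -2.19) and 125 and 36.6 CPM in T or NK cells. UQCRQ, the most abundant of the 4, was past 2-fold in epithelial cells (464 and 138 CPM) and macrophages (188 and 91.6 CPM).

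Complex IV had the lowest summed ratio of the 5 complexes in each of the 6 classes but the epithelial one. Its share of UMIs was 0.270% and 0.104% in stromal cells (log2 -1.38), 0.290% and 0.114% in blood endothelial cells (-1.34), 0.327% and 0.144% in muscle or pericyte cells (-1.18), 0.323% and 0.154% in macrophages (-1.07) and 0.413% and 0.200% in T or NK cells (-1.05). In epithelial cells it was 0.476% and 0.157% (-1.60), next to complex V at -1.68.

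COX4I1, the most abundant member of all and a regulatory subunit that binds nucleotides, was within 2-fold in each of the 6 classes. Among them it ranged from 937 CPM in stromal to 1444 CPM in T or NK cells of library 1, and from 494 CPM in stromal to 1002 CPM in T or NK cells of library 2. Plasma cells, outside the 6, were lower, at 456 and 372 CPM. COX5A was past 2-fold in epithelial cells alone (263 and 98.4 CPM), and COX5B in 5 of 6 classes. The smaller subunits stood further apart. COX7B was the lowest member of complex IV in all 6 classes: it had 627 and 71.3 CPM in epithelial cells (log2 -3.14, 95% interval -3.24 to -3.04), 233 and 38.9 in stromal cells (-2.58), 256 and 46.8 in blood endothelial cells (-2.45), 292 and 57.2 in muscle or pericyte cells (-2.35), 443 and 108 in T or NK cells (-2.03) and 259 and 65.3 in macrophages (-1.99). COX7C had 403 and 98.8 CPM in stromal cells and 366 and 120 CPM in T or NK cells. COX8A had 689.5 and 249 CPM in epithelial cells and 789 and 311 CPM in T or NK cells, a log2 ratio between -1.65 and -1.34 over the 6 classes.

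The COX7A position has a pair of isoform genes, COX7A1, known as the heart and muscle form, and COX7A2, the form found in most tissues. Stromal cells, not muscle cells, held the highest level of COX7A1 in library 1, at 164 CPM, followed by muscle or pericyte cells at 120.1, ciliated cells at 113, epithelial cells at 79.7, lymphatic endothelial cells at 75.4, blood endothelial cells at 62.5, macrophages at 32.6, T or NK cells at 30.1 and plasma cells at 27.1 CPM. In library 2 the same classes had 34.2, 27.4, 34.0, 41.2, 20.9, 19.4, 12.2, 13.3 and 9.80 CPM. COX7A2 was the more abundant of the pair in each class, at 234 and 69.4 CPM in stromal and 356 and 82.3 CPM in muscle or pericyte cells.

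The mix of the isoforms was kept between libraries in some classes and not in others. COX7A1 made up 25.2% (95% interval 23.8 to 26.7) of the pair in muscle or pericyte cells of library 1 and 25% (21.7 to 28.6) in library 2, and 18.4% (17.2 to 19.7) and 20.2% (18.1 to 22.5) in blood endothelial cells. Within the muscle or pericyte class the EDNRB and TFPI2 clusters had 28.1% and 27.8% and the MGP and ITIH4 clusters 19.9% and 20.1%. In stromal cells the share was 41.2% (39.0 to 43.4) and 33.0% (30.2 to 36.0). The unnamed clusters of library 1 that best matched stroma had 39.7% and 35.4%. In epithelial cells it was 11.8% (10.4 to 13.3) in library 1 and 32.0% (30.2 to 33.9) in library 2. The low-depth SHANK2 cluster of library 2 had 44.9% and the other 2 epithelial clusters 29.1% and 33.3%. Of the pair, COX7A2 had the wider gap in epithelial cells (594 and 87.6 CPM, beside 79.7 and 41.2 CPM for COX7A1).

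**Figure D3:**
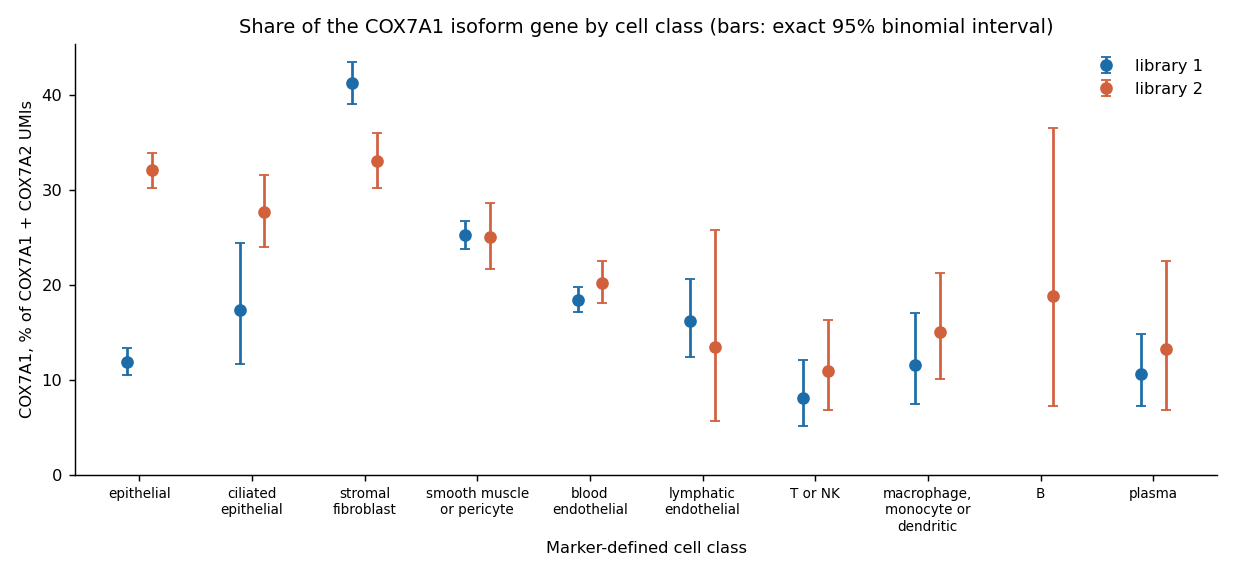
COX7A1 as a share (%) of the UMIs of COX7A1 and COX7A2 together (vertical axis) by cell class (horizontal axis) for library 1 (blue) and library 2 (orange), with exact 95% binomial intervals. The libraries coincide in muscle or pericyte cells (25.2% and 25%) and are apart in epithelial (11.8% and 32.0%) and stromal cells (41.2% and 33.0%).

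COX6B2, known as the testis form of the COX6B position, was the one member whose level in its highest class was at least 4 times its median over the named classes in both libraries. Epithelial cells had 6.36 CPM (95% interval 3.83 to 9.93, 19 UMIs) in library 1 and 2.53 CPM (1.87 to 3.36, 48 UMIs) in library 2. Ciliated cells had 4.33 CPM from 1 UMI in library 1 and 1.75 CPM from 8 UMIs in library 2. None of the other named classes had more than 6 UMIs in a library. An unnamed cluster of library 2 led by SAL1 had 4.29 CPM (17 UMIs). The common form at that position, listed as COX6B, had 338 and 86.9 CPM in epithelial cells.

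Complex V contained both the only member higher in library 2 and several of the lowest. ATP5F1D, the delta subunit of the central stalk, was at 54.9 and 181 CPM in epithelial cells, 52.4 and 168 in stromal cells, 64.0 and 233 in muscle or pericyte cells, 47.3 and 179 in blood endothelial cells, 57.8 and 172 in macrophages and 40.2 and 200.1 in T or NK cells. The log2 ratio ran from 1.57 (95% interval 1.09 to 2.08) in macrophages to 2.32 (1.76 to 2.93) in T or NK cells. The partner in the stalk, ATP5F1C (gamma), was within 2-fold outside the epithelium, with 110 and 94.5 CPM in stromal cells and 172 and 155 CPM in T or NK cells. No other member of the complex had a ratio above 0 in any of the 6 classes. Whether another transcript overlaps ATP5F1D in the annotation used for counting was not tested.

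The catalytic head of complex V is built from ATP5F1A (alpha) and ATP5F1B (beta). ATP5F1A was at 377 and 80.1 CPM in epithelial cells and 143 and 68.9 CPM in stromal cells, and ATP5F1B at 269 and 74.0 CPM and at 151 and 109.5 CPM. Of the genes of the proton-carrying c-ring, ATP5MC3 was past 2-fold in 6 of 6 classes (264 and 112 CPM in stromal cells). ATP5MC2, the most abundant of complex V by the mean of the libraries, was past 2-fold in 2 of 6, epithelial (677 and 236 CPM) and stromal cells (265 and 122 CPM). Of the 4 peripheral stalk genes, ATP5PF was past 2-fold in all 6 classes and was the lowest of the complex in epithelial cells (559.7 and 112 CPM, log2 -2.33), while ATP5PO had 81.8 and 75.1 CPM in T or NK cells. ATP5MD, a small membrane subunit, was the lowest in the other 5 classes, for example at 169 and 30.1 CPM in macrophages. ATP5IF1, the inhibitor that stops the enzyme from running backwards, had 380 and 77.2 CPM in epithelial cells and 192 and 71.8 CPM in T or NK cells.

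Genes that work with the chain but lie outside the symbol rule did not all go the same way. CYCS, cytochrome c, the carrier between complexes III and IV, was higher in library 2 in blood endothelial (131 and 331 CPM), muscle or pericyte (121 and 349 CPM) and stromal cells (57.4 and 144 CPM), where the subunits were lower. CYCS was within 2-fold in epithelial cells (114 and 80.9 CPM), T or NK cells (155 and 158 CPM) and macrophages (124 and 226 CPM). NDUFAB1, the acyl carrier subunit of complex I, was at least 2-fold lower in all 6 classes, with 238 and 48.7 CPM in epithelial cells. CYC1, the cytochrome c1 of complex III, was within 2-fold in all 6, with 93.0 and 82.7 CPM in stromal cells. Among assembly factors, of which 13 to 27 of 28 were measured in a class, the median log2 ratio lay between -0.65 (epithelial) and -0.20 (T or NK), above the median of the subunits in each class. COX17, the copper chaperone of complex IV, was lower (153 and 69.4 CPM in blood endothelial cells), and NUBPL, which delivers iron-sulfur clusters to complex I, was higher (17.3 and 83.5 CPM in stromal cells).

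Other mitochondrial lists had medians above that of the subunits in each class. Mitochondrial ribosomal protein genes, 52 to 60 of 60 measured in a class, had medians from -0.95 in epithelial to -0.24 in T or NK cells, and import genes (15 to 21 of 21) from -1.04 to -0.46, with TOMM7, a small subunit of the outer membrane pore, at 177 and 37.2 CPM in blood endothelial cells. Genes of the citrate cycle and pyruvate dehydrogenase (10 to 12 of 12) ranged from -0.88 in epithelial cells to 0.21 in macrophages, and glycolysis genes (16 to 20 of 22) from -0.72 in epithelial to 0.24 in stromal cells. Within the latter, PDK4, the kinase that shuts off pyruvate dehydrogenase, was at 6.36 and 774 CPM in epithelial cells. PFKFB3, which drives glycolytic flux, was at 37.2 and 202 CPM in blood endothelial cells. Regulators of mitochondrial biogenesis (9 to 20 of 21) had medians from -0.38 in macrophages to 0.36 in T or NK cells. In epithelial cells 4 of 19 were at least 2-fold lower and 4 higher, beside 20.9% and 27.8% of all features. Among the regulators, NRF1 is a transcription factor known to bind promoters of respiratory chain genes. It was higher in library 2, at 24.4 and 99.4 CPM in epithelial and 59.3 and 169.8 CPM in stromal cells. MTERF3, of the mitochondrial transcription termination factor family, was lower (183 and 52.7 CPM in epithelial cells). In muscle or pericyte cells ESRRG, an orphan receptor that drives oxidative genes, was at 1.12 and 121 CPM.

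**Figure D4:**
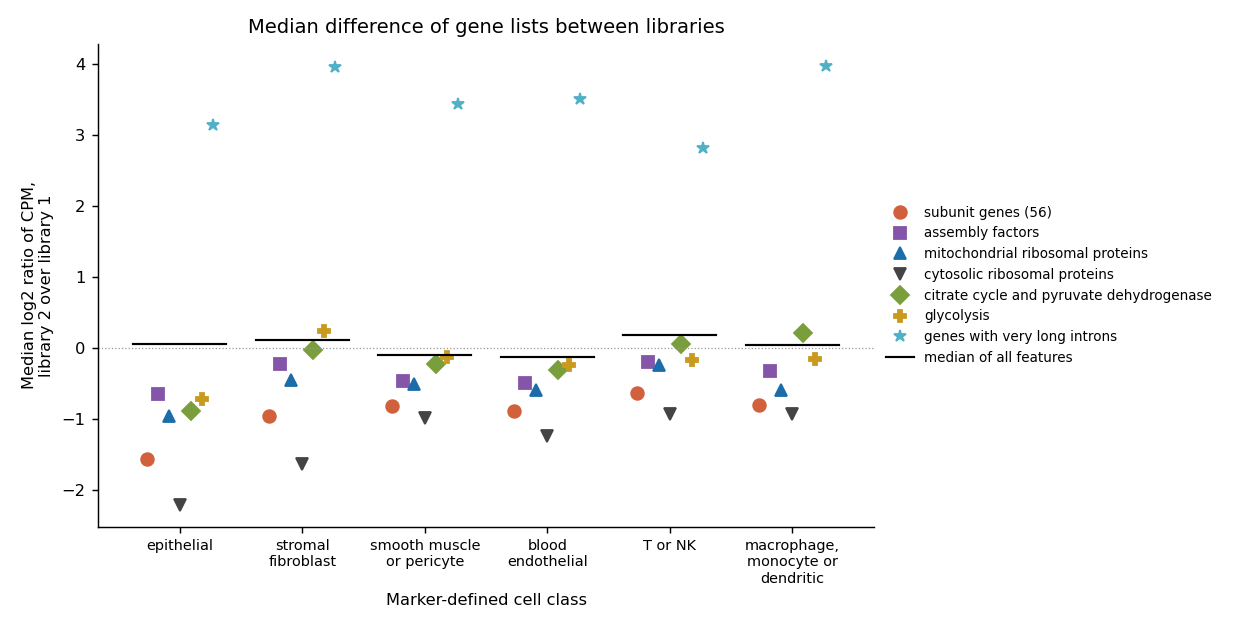
Median log2 ratio of CPM, library 2 over library 1 (vertical axis), of the subunit genes and 6 other gene lists in the 6 cell classes (horizontal axis); black lines are the median of all features measured in the class. Subunit genes lie below the line in every class, cytosolic ribosomal protein genes lie lower still and genes with very long introns lie highest, between 2.82 and 3.98.

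Measures that concern the make-up of the libraries differed along with the subunits. Cytosolic ribosomal protein genes took 14.4% of UMIs in library 1 and 5.78% in library 2, and 23.2% and 5.55% in epithelial cells, the class with the widest gap of the subunits. Their median log2 ratio was below that of the subunits in each of the 6 classes. It ran from -2.20 in epithelial to -0.92 in T or NK cells. Of the 62 measured, 30 to 60 were at least 2-fold lower, beside 6.52% to 20.9% of all features. The number of subunit UMIs per 100 ribosomal protein UMIs was 6.18 and 6.14 in T or NK cells, 8.92 and 8.64 in muscle or pericyte cells, 6.36 and 6.77 in blood endothelial cells and 8.36 and 7.75 in macrophages. It was 7.37 and 10.4 in epithelial cells, 6.05 and 8.79 in stromal cells and 19.6 and 14.8 in ciliated cells. Plasma cells had 8.28 and 8.08. In the other direction, 23 genes with very long introns took 0.0714% of UMIs in library 1 and 0.671% in library 2, and their medians, over the 10 to 23 measured in a class, lay between 2.82 and 3.98. Of these, AUTS2 was at 3.49 and 689.6 CPM in muscle or pericyte cells. Stress and immediate early genes took 1.01% and 2.11% of UMIs over all cells, with 0.678% and 2.30% in epithelial, 0.786% and 1.88% in stromal, 0.773% and 1.91% in muscle or pericyte and 1.37% and 2.14% in blood endothelial cells, but 1.97% and 1.72% in T or NK cells and 1.82% and 1.70% in macrophages. The part of each of these measures in the difference of the subunit genes was not tested, and the animal, its stage and the handling of its tissue cannot be told apart with 1 library each.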

How the data were processed

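Both matrices hold raw counts of UMIs per gene and barcode as deposited by the authors. The Cell Ranger version is 6.1.0 per the file headers but 2.1.1 per the submitters' processing notes. Genome build, annotation and the treatment of intron reads: not given in the sources used here. Of 26881 gene rows, 16128 carry no symbol. Library totals were 45388759 and 87514969 UMIs, with medians of 3431 and 4335 per barcode.

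A minimum of 500 UMIs and 200 genes per barcode left out 5 and 1 barcodes, and Scrublet doublets (1110 and 2419) were removed in scanpy 1.11.5. Clustering used 2000 variable genes, 30 components, 15 neighbours and Leiden resolution 1 (igraph 0.11.9, seed 1), without integration and without the subunit genes. Clusters were named from marker lists: at least 3 markers, a mean log2 fold of at least 0.5 (pseudocount 20 CPM), a margin of 0.25 and no surplus of another class's markers among the 10 leading genes. The last condition was added after the data were seen. In a simulated check of the naming, 5 of 5 clusters were recovered. These were made by raising the markers of the naming lists themselves, so the check does not bear on clusters with weaker markers.

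UMIs were summed per class and library. Shares have exact Clopper-Pearson, CPM exact Poisson and log2 ratios exact conditional binomial intervals at 95% (scipy 1.17.1), for counting error only. Counts under 3 UMIs were set to 3 in ratios. With 1 library per group no test, p-value or count model was used, and the 2-fold counts are descriptions. Tested on simulated data for epithelial cells (11882 features), the intervals held the true ratio for 95.7% of features. TMM factors for an alternative scaling came from edgeR 4.0.16 in R 4.3.3.

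Named genes were members of isoform pairs, members at least 4 times their median over classes, the highest and lowest ratio per complex and class, the most abundant member per complex, and the 2 widest ratios per other list. Further members named to account for the counts were chosen after their values were seen. The members and all lists were chosen with earlier results of these data known, so they are no independent evidence. Protein and promoter sequences were not used here. RefSeq Sscrofa11.1 shares the symbol of 34 of 56 members (60.7%), so no check of gene length was made. Alternatives covered scaling, weighting of cells, thinning to 1000 UMIs, filters, doublets and clustering.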

Additional observations from a re-analysis of the deposited data

How the results depend on the processing

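No paired analysis was possible because each group has 1 library. The members' median ratio and their 2-fold counts were recomputed under other settings, which gave 270 values. Only the medians among them could change direction, and 0 did. Of the 270 values, 266 stayed within 1.5 times a count or within the spread of the median. The exceptions were the epithelial median (-1.56), which was -1.86 with totals without ribosomal protein genes, -1.82 with cells weighted equally and -1.79 with cells thinned to 1000 UMIs, and the number of members higher in T or NK cells, which was 2 in place of 1 after thinning. Across settings the count of lower members ranged from 42 to 47 in epithelial, 24 to 30 in stromal, 22 to 28 in blood endothelial, 21 to 26 in muscle or pericyte, 14 to 23 in macrophage and 13 to 21 in T or NK cells. Settings chosen after seeing the data were part of these: without the low-depth SHANK2 cluster, 42 of 56 members were lower in epithelial cells (median -1.52), and with the unnamed clusters that best matched stroma, 29 of 55 in stromal cells (median -1.02). When each library was clustered on its own no epithelial cluster was named in library 1, so that comparison gave no value. Of 94 recomputed shares of UMIs, 45 stayed within their counting interval. The others moved, for example to 1.45% and 0.856% in T or NK cells when only genes with a symbol were counted, and to 0.457% as the mean over epithelial cells of library 2. Thinning kept 170 of 194 and 2823 of 3419 epithelial cells. Depth limits COX6B2, NDUFB1 and COX7A1, which were too sparse for a ratio in some classes.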
